A study of Homo sapiens with 5 samples.

Results

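Ribosome biogenesis is the assembly line that makes ribosomes. In the nucleolus, RNA polymerase I transcribes a long precursor of ribosomal RNA (rRNA), small nucleolar ribonucleoproteins (snoRNPs) guide its cutting and chemical modification, and assembly factors build the small and the large ribosomal subunit around it. The transcription factor MYC is known to bind and raise many of the genes of this line, often through the DNA motif CACGTG, the canonical E-box, and colorectal cancer cells with much MYC make many ribosomes. The genes described here are 36 protein-coding genes, chosen by symbol as ribosome biogenesis genes linked to MYC, of 60651 gene identifiers in the tables. The choice did not use their values in these libraries, but it was made with earlier results of these data known. That MYC drives them in these cells is part of how the list was named and was not tested, because no library here had MYC itself targeted.

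The libraries were made from poly(A) RNA of COLO 320DM, an established human colon adenocarcinoma line in which MYC is amplified on small extrachromosomal DNA. The study asked how the deubiquitinase USP17 acts in colorectal cancer, and transfected the cells with small interfering RNAs (siRNAs). The siIDT, sino4 and siSMPLT libraries form the USP17 siRNA group (n = 3), and the siL2 and siNT libraries form the control siRNA group (n = 2), both controls being non-silencing duplexes given to the same cell line. Controls are named by the series and the other libraries were assigned to USP17 by elimination. Dose, time after transfection and separate cultures are not stated in the labels. Each duplex had 1 library, and a p-value here reflects the scatter of these 5 libraries alone, possibly technical scatter.

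Each library had 31704821 to 36276143 reads in genes. The 26 genes named USP17L, the family that encodes USP17, had 0 reads on their own strand and 0 in RSEM in all 5 libraries, which by counting error alone leaves room for 3 reads per library, between 0.0827 and 0.0946 CPM (counts scaled to library size). The knockdown therefore could not be checked in these RNA data. Of 11 colon and epithelial markers, 6 reached a mean of 1 TPM (a level scaled to transcript length and library size), EPCAM, KRT8, KRT18, KRT20, CDX2 and CDH17, while CDH1, KRT19, VIL1, CDX1 and LGALS4 did not. Their summed level was 1654 to 1713 TPM in the USP17 siRNA group and 1965 to 2042 TPM in the control group, most of it CDX2, an intestinal transcription factor that fell (log2 change -0.31, adjusted p = 0.0162 in edgeR). CDH17, an intestinal cadherin, rose (0.88, adjusted p = 0.00285), KRT8 was at -0.21 (0.13) and KRT20 at 0.77 (0.174), so the sum does not stand for each marker. Of 10 markers of other cell types 3 reached 1 TPM, with sums of 26.9 to 27.72 TPM and 25.03 to 28.49 TPM, and DCN, CD3E and MS4A1 were at 0. The 3 detected, COL1A1, LYZ and PTPRC, were at -0.10, 0.13 and -0.01 (adjusted p = 0.701, 0.753 and 0.962). The part of these markers in the results below was not tested. CPM and TPM are shares of a library, so a change in cell number or in total RNA per cell cannot be seen in them.

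The genes were picked for a link to MYC, so an excess of the E-box in their promoters over all promoters is partly built into the choice and is given as a description. RefSeq promoter windows on GRCh38.p14, running from 250 bases before to 50 bases after the annotated start, were found for 29 of the 36 genes. The motif CACGTG, which reads the same on both strands, was present in 10 of these 29 windows (34.5%), against 2030 of 27305 windows in the whole table (7.43%) and 1122 of 11204 windows of genes tested (10%). Other lists had like or higher shares: 15 of 45 windows (33.3%) in small subunit genes outside the list, 13 of 46 (28.3%) in large subunit genes outside it and 12 of 23 (52.2%) in MYC targets outside ribosome biogenesis. Further polymerase I genes had 1 of 16 and further snoRNP genes 1 of 13. The motif is thus not particular to the 36 genes. All 10 held a copy within 50 bases of the start, which is 34.5% of the 29 windows. That share was 2.87% of all windows and 4.07% of those of genes tested. It was 26.7% in small subunit genes outside the list. Large subunit genes outside it and MYC targets outside ribosome biogenesis each had 17.4%. These differences were not tested. IMP4 held a further copy 203 bases before its start. A match is a description of letters and not a measured MYC site. Sequences are shown for 6 of the 10, with the motif in capitals, because they include the gene of this group that fell (RRP9), 4 whose USP17 siRNA libraries all lay below both controls (FBL, PES1, WDR43 and NOP14) and 1 whose groups overlapped (UTP20). Each is written 5′ to 3′ on the strand of its gene: RRP9 from chr3:51941874-51941939 (minus strand), FBL from chr19:39846338-39846403 (minus), PES1 from chr22:30591862-30591927 (minus), WDR43 from chr2:28894640-28894705 (plus), NOP14 from chr4:2963357-2963421 (minus) and UTP20 from chr12:101280065-101280130 (plus).
RRP9: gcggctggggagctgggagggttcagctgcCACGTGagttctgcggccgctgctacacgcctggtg
FBL: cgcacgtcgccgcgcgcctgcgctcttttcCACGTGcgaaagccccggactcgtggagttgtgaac
PES1: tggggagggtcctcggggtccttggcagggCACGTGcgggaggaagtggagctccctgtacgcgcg
WDR43: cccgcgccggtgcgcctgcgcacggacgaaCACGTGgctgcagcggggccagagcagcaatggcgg
NOP14: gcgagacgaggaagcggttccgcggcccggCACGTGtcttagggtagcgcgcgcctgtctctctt
UTP20: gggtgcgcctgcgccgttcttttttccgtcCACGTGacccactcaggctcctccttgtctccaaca

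At the level of RNA, 2 of the 36 genes fell with USP17 siRNA and 0 rose: NOLC1, a chaperone that brings snoRNPs to the nucleolus, and RRP9, a protein of the U3 snoRNP that starts the cutting of the rRNA precursor. All 36 passed the filter on low counts. Genes were called at an adjusted p under 0.05 in edgeR's quasi-likelihood test with Benjamini-Hochberg adjustment over all 16341 genes tested, of which 10.5% were called, 5.82% lower and 4.64% higher. The 2 of 36 is near this background. The per-library CPM values showed a broader one-sided shift. In 18 genes (50%) all 3 USP17 siRNA libraries lay below both controls, against 22.6% of all genes tested, and in 1 gene (2.78%), NOP2, they all lay above, against 23.3%. Fitted changes were negative in 26 genes and positive in 10, from -0.40 to 0.21 on the log2 scale, with a median of -0.10 beside 0.01 for all genes tested. An unadjusted p under 0.05 was reached by 13 of the 36, all with negative changes, and by 4718 of the 16341 genes. DESeq2's Wald test called 5 of the 36, adding LYAR, PES1 and NIP7, where it called 17.0% of the 13806 genes to which it gave an adjusted p, so this share is no higher than the background either.

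**Figure D1:**
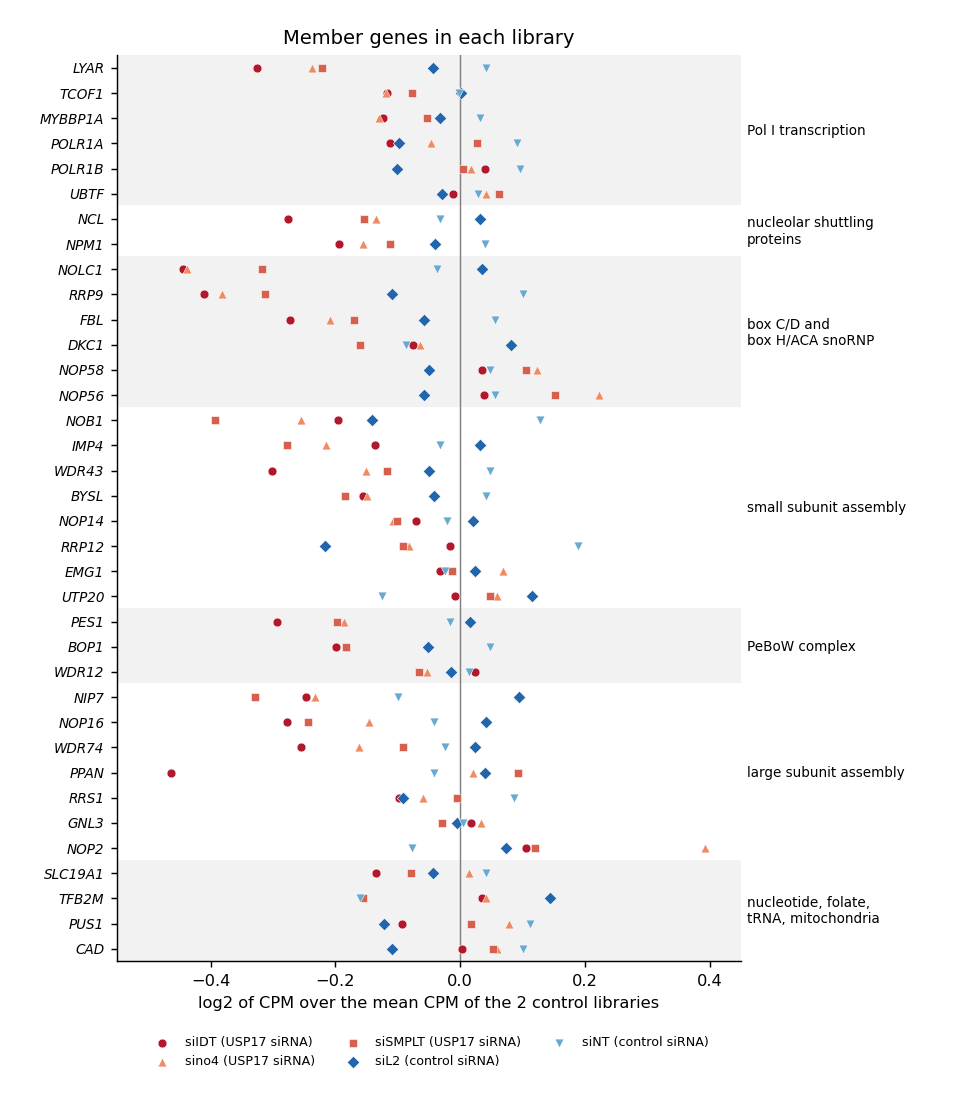
Level of each of the 36 genes in each of the 5 libraries, as log2 of its CPM over the mean CPM of the siL2 and siNT libraries, in rows grouped by role; red and orange symbols are USP17 siRNA libraries and blue symbols are controls. In 18 rows all 3 USP17 siRNA symbols lie left of both blue ones, and in 1 row, NOP2, they lie right of both.

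Levels between genes are given as TPM, which is scaled to transcript length. NPM1 was highest, at a mean of 2627 TPM over the 5 libraries, 211 times the mean of SLC19A1 (12.4 TPM), which was lowest. NCL followed at 1079 TPM, FBL at 528.3 TPM and NOP56 at 342.1 TPM, while RRP12 (17.8 TPM) was next to lowest. The other 30 genes lay between 20 and 300 TPM, and NPM1 and NCL together made up 49.6% of the summed level of the list. That sum was 7116 TPM in siIDT, 7186 TPM in sino4 and 7349 TPM in siSMPLT, against 7680 TPM in siL2 and 8019 TPM in siNT, so the groups did not overlap. Without NPM1 and NCL the sums were 3632, 3676 and 3691 TPM against 3837 and 3984 TPM, again without overlap. The list as a whole held 0.712% to 0.735% of all transcripts in the USP17 siRNA libraries and 0.768% to 0.802% in the controls.

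**Figure D2:**
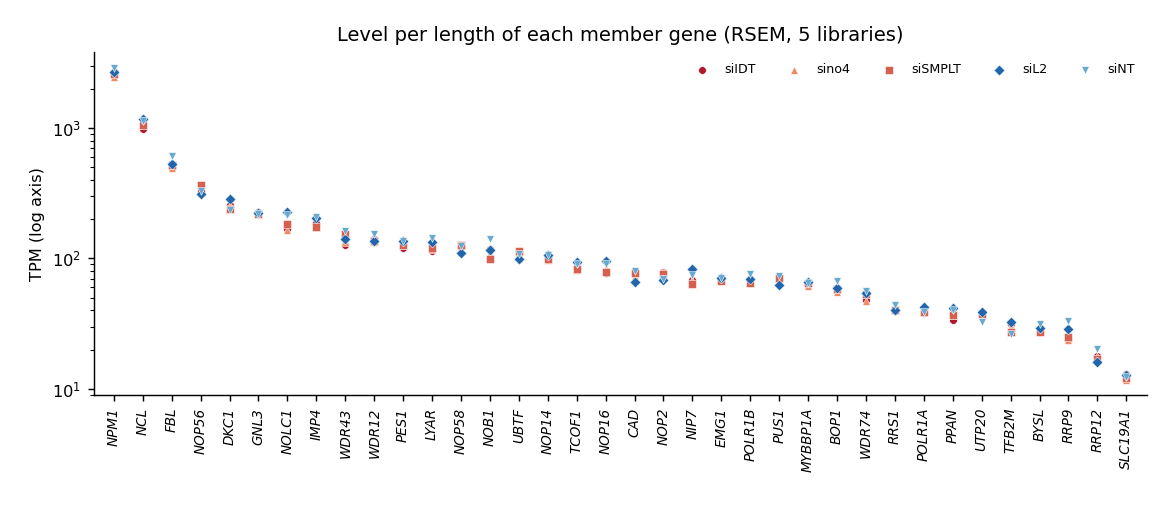
Length-scaled level (TPM, log axis) of each of the 36 genes in each of the 5 libraries, ordered by mean level. Levels run from 2627 TPM for NPM1 to 12.4 TPM for SLC19A1, and the 5 libraries differ far less than the genes do.

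Genes that transcribe rRNA came first in the line. POLR1A and POLR1B encode the large subunits of RNA polymerase I, and UBTF encodes the factor that opens the rRNA gene promoter. POLR1A ranged from 198.1 to 218.2 CPM with USP17 siRNA and from 200.2 to 228.2 CPM in controls, POLR1B from 190.9 to 195.7 and 177.4 to 203.4 CPM, and UBTF from 227.6 to 239.6 and 224.8 to 233.9 CPM. All 3 overlapped between groups, with fitted changes of -0.04 ± 0.08 (SE), 0.02 ± 0.08 and 0.03 ± 0.07 on the log2 scale.

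TCOF1, the treacle protein that couples polymerase I to early processing, was at 194.1, 193.9 and 199.5 CPM with USP17 siRNA against 210.6 and 210.3 CPM in controls. MYBBP1A, a nucleolar protein that binds MYB, was at 110.4, 109.9 and 116 CPM against 117.6 and 123 CPM. Both lay below both controls in all USP17 siRNA libraries, by a small margin (-0.10 ± 0.06 and -0.10 ± 0.07), and neither passed the test (adjusted p = 0.326 and 0.387 in edgeR).

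LYAR, a nucleolar zinc finger protein of rRNA transcription and processing, stood apart in this role. It was at 109.5 CPM in siIDT, 116.5 CPM in sino4 and 117.7 CPM in siSMPLT, against 133.2 CPM in siL2 and 141.3 CPM in siNT. The highest USP17 siRNA library lay below the lower control. Means were 114.6 ± 4.40 (SD, n = 3) and 137.3 ± 5.69 CPM (SD, n = 2), a log2 difference of -0.26 ± 0.07 that just missed the threshold (adjusted p = 0.0564 in edgeR) and passed it in DESeq2 (adjusted p = 0.0235). Without the siL2 library edgeR called it too (adjusted p = 0.0329). Its adjusted p ranged from 0.0235 to 0.203 over all alternatives.

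NCL (nucleolin) and NPM1 (nucleophosmin) are the abundant proteins that shuttle between nucleolus and nucleoplasm. NCL was at 1620 CPM in siIDT, 1786 CPM in sino4 and 1763 CPM in siSMPLT, against 2004 CPM in siL2 and 1917 CPM in siNT, with means of 1723 ± 90.1 (SD, n = 3) and 1961 ± 61.8 CPM (SD, n = 2). NPM1 was at 789.7, 810.4 and 835.6 CPM against 877.8 and 928.5 CPM, with means of 811.9 ± 23.0 and 903.2 ± 35.9 CPM. Both were lower in every USP17 siRNA library, siIDT lowest, by -0.19 ± 0.06 and -0.15 ± 0.06 on the log2 scale, and neither passed the test (adjusted p = 0.102 and 0.145). STAR's unique counts hold 42.7% of the NPM1 reads that RSEM assigned, and RSEM's expected counts gave -0.16 ± 0.05 (adjusted p = 0.103).

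The snoRNP genes held both called genes and also 2 with positive fitted changes. NOLC1 (chr10:102152176-102163871, plus strand, GRCh38) was at 397.4 CPM in siIDT, 399.2 CPM in sino4 and 434.1 CPM in siSMPLT, against 554.3 CPM in siL2 and 527.2 CPM in siNT. The groups were far apart against their spread, with means of 410.2 ± 20.7 (SD, n = 3) and 540.8 ± 19.2 CPM (SD, n = 2). NOLC1 fell by 24.1%, a log2 change of -0.40 ± 0.07 (adjusted p = 0.0142 in edgeR and 0.000137 in DESeq2). RRP9 (chr3:51933430-51941941, minus strand) was at 24.32, 24.81 and 26.04 CPM against 29.98 and 34.68 CPM. The USP17 siRNA libraries lay close together and the controls further apart (25.06 ± 0.887 and 32.33 ± 3.33 CPM), and RRP9 fell by 22.5%, a log2 change of -0.37 ± 0.10 (adjusted p = 0.0461).

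Both calls depended on which libraries were in the fit, and RRP9 also missed the threshold when the filter on low counts was left out. NOLC1 missed the threshold without siIDT (adjusted p = 0.0663) and without sino4 (0.0953). RRP9 missed it without siIDT (0.146), sino4 (0.189), siSMPLT (0.0838) or siNT (0.0989). Over all alternatives the log2 change of NOLC1 stayed between -0.44 and -0.36 and that of RRP9 between -0.47 and -0.26.

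FBL (fibrillarin), the methyltransferase of box C/D snoRNPs, was at 239.1, 249.9 and 256.7 CPM against 277.4 and 300.2 CPM. It lay below both controls in every USP17 siRNA library but did not pass the test (-0.22 ± 0.07, adjusted p = 0.0854), and it did without siL2 (0.0334). DKC1 (dyskerin), the pseudouridine synthase of box H/ACA snoRNPs, was at 348.1, 350.8 and 328.4 CPM against 388.3 and 345.4 CPM. Its groups overlapped.

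NOP56 and NOP58, which form the scaffold around FBL in the same box C/D particle, were not lower. NOP56 was at 239.4, 272.2 and 259 CPM against 224 and 242.5 CPM (0.14 ± 0.08, adjusted p = 0.288), and NOP58 at 135.9, 144.5 and 142.8 CPM against 128.2 and 137.1 CPM (0.09 ± 0.07, adjusted p = 0.464). For both, siIDT lay between the controls and the other USP17 siRNA libraries lay above them. The genes of 1 particle thus had fitted changes of either sign, and the difference between them was not tested.

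In small subunit assembly, 5 of 8 genes lay below both controls in CPM in every USP17 siRNA library and 0 were called. In TPM, NOB1 and WDR43 overlapped between groups. NOB1 was at 118.3 TPM in siIDT against 116.3 TPM in siL2, and WDR43 at 154.5 TPM in siSMPLT against 141.4 TPM in siL2. IMP4, a protein of the U3 snoRNP, was at 232, 219.7 and 210.4 CPM against 260.7 and 249.4 CPM, with means of 220.7 ± 10.8 (SD, n = 3) and 255.0 ± 7.99 CPM (SD, n = 2). It had the smallest p of this role and missed the threshold (-0.21 ± 0.07, adjusted p = 0.097). NOB1, the nuclease that makes the end of 18S rRNA, was at 109.7, 105.3 and 95.61 CPM against 113.9 and 137.3 CPM. Here the controls differed from each other more than siL2 differed from siIDT or sino4 (-0.28 ± 0.10, adjusted p = 0.110), and without siL2 NOB1 passed (-0.41, adjusted p = 0.0212).

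Of the further small subunit genes, WDR43, NOP14 and BYSL were also below both controls in CPM in every USP17 siRNA library. WDR43, a scaffold protein of the early precursor, was at 243.1, 269.6 and 276.1 CPM against 289.4 and 309.5 CPM (-0.19 ± 0.08, adjusted p = 0.155). NOP14, which acts in the same precursor, was at 224.7 to 230.5 CPM against 238.6 and 245.6 CPM (-0.09 ± 0.06), and BYSL (bystin), a late assembly factor, at 30.42 to 31.19 CPM against 33.59 and 35.58 CPM (-0.16 ± 0.08). UTP20, EMG1 and RRP12 overlapped. UTP20, a large scaffold protein, was at 218.6 to 229 CPM against 201.6 and 238.1 CPM. EMG1, an rRNA methyltransferase, was at 59.9 to 64.21 CPM against 60.24 and 62.26 CPM, and 34.11% of the reads over it lay on the opposite strand. RRP12, which helps to export the subunit, was at 40.41, 38.63 and 38.36 CPM against 35.17 and 46.57 CPM (39.13 ± 1.12, SD, n = 3, and 40.87 ± 8.06 CPM, SD, n = 2), a log2 difference of -0.06 ± 0.12 (adjusted p = 0.769). For RRP12 and UTP20 all USP17 siRNA libraries lay between the 2 controls.

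PES1, BOP1 and WDR12 form the PeBoW complex, which processes the precursor of the large subunit rRNAs. PES1 was at 132, 142.2 and 141.1 CPM against 163.6 and 160 CPM, with means of 138.4 ± 5.60 (SD, n = 3) and 161.8 ± 2.54 CPM (SD, n = 2). BOP1 was at 87.16, 88.25 and 88.2 CPM against 96.58 and 103.5 CPM. Neither overlapped between groups (-0.22 ± 0.07, adjusted p = 0.0771, and -0.19 ± 0.07, adjusted p = 0.130), and DESeq2 called PES1 (adjusted p = 0.0478). WDR12 was at 101.8, 96.49 and 95.61 CPM against 99.09 and 101.1 CPM, overlapping (-0.03 ± 0.07).

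Among the other large subunit factors, NIP7, NOP16 and WDR74 lay below both controls in every USP17 siRNA library. NIP7, which acts in rRNA processing, was at 90.89, 91.87 and 85.91 CPM against 115.2 and 100.7 CPM, with means of 89.56 ± 3.19 (SD, n = 3) and 107.9 ± 10.2 CPM (SD, n = 2). It did not pass in edgeR (-0.27 ± 0.08, adjusted p = 0.075) and passed in DESeq2 (adjusted p = 0.0439) and without siNT (0.0174). NOP16, an assembly factor of the large subunit, was at 42.06, 46.09 and 43.08 CPM against 52.48 and 49.51 CPM (-0.22 ± 0.08, adjusted p = 0.121), and 29.63% of the reads over it lay on the opposite strand. WDR74, which works with a remodelling ATPase on the pre-60S particle, was at 34.6, 36.89 and 38.74 CPM against 41.97 and 40.62 CPM (-0.17 ± 0.09, adjusted p = 0.232). GNL3 (nucleostemin), a nucleolar GTPase, did not separate the groups, at 243.3 to 253.9 CPM against 247.4 and 248.9 CPM (0.01 ± 0.06).

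For 3 large subunit genes the unique counts missed reads. NOP2, an rRNA methyltransferase, is overlapped on its own strand by another coding gene, and its unique counts were 2.9% of its RSEM reads. The counts gave 2.539, 3.097 and 2.564 CPM against 2.481 and 2.236 CPM (0.21 ± 0.18, adjusted p = 0.482), and RSEM gave 0.09 ± 0.08 (adjusted p = 0.523). By RSEM, NOP2 was at 78.17, 80.09 and 76.49 TPM against 68.80 and 69.70 TPM, so it was above both controls in both sources. PPAN, an assembly factor overlapped by a read-through gene, had 10.8% of its RSEM reads in the unique counts. Its counts overlapped (-0.10 ± 0.19), while its TPM values did not, at 34.00, 37.13 and 36.87 against 41.79 and 39.87 TPM (RSEM change -0.15 ± 0.08, adjusted p = 0.254). RRS1, which loads 5S rRNA, had 69.0% and overlapped (-0.05 ± 0.09; RSEM -0.10 ± 0.08). With these 3 and NPM1 left out, 17 of 32 genes lay below both controls, 0 above, and the same 2 were called.

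Outside the nucleolar core, CAD, SLC19A1, PUS1 and TFB2M overlapped between groups in every case. CAD, which starts pyrimidine synthesis, was at 265.6, 276 and 274.7 CPM against 245.6 and 284.3 CPM (0.04 ± 0.08). SLC19A1, the reduced folate carrier, was at 27.26, 30.23 and 28.33 CPM against 29.04 and 30.8 CPM (-0.06 ± 0.09, adjusted p = 0.677). PUS1, a tRNA pseudouridine synthase, was at 59.99, 67.59 and 64.78 CPM against 58.81 and 69.16 CPM (0.00 ± 0.10), and TFB2M, a mitochondrial transcription factor, at 35.85, 35.99 and 31.39 CPM against 38.67 and 31.28 CPM (-0.02 ± 0.11). These 4 had a median log2 change of -0.01, against -0.07 in polymerase I transcription, -0.17 for NCL and NPM1, -0.16 in snoRNPs, -0.13 in small subunit assembly, -0.19 in PeBoW and -0.10 in large subunit assembly. The roles were not tested against each other.

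**Figure D3:**
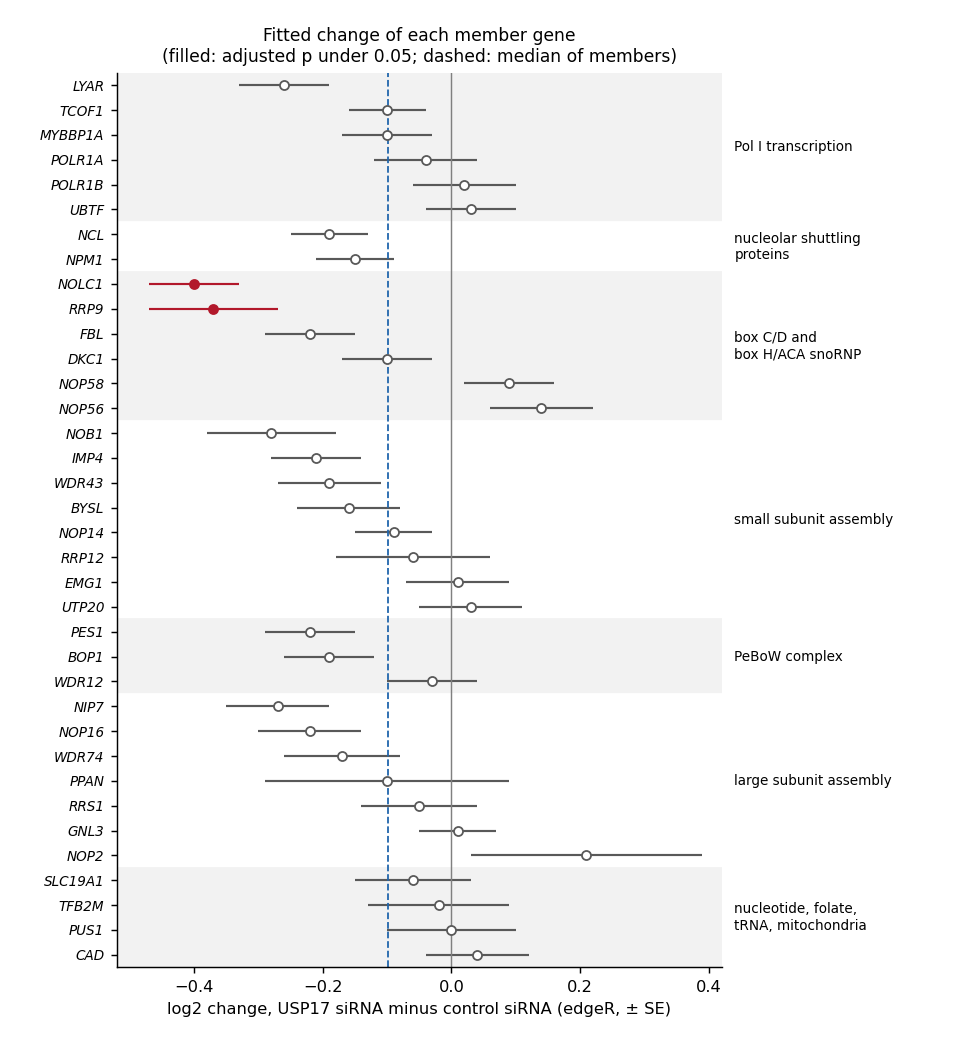
Fitted log2 change (USP17 siRNA minus control siRNA) of each of the 36 genes with its standard error, grouped by role; filled points passed the test and the dashed line is the median of the list, -0.10. The 2 filled points are NOLC1 at -0.40 and RRP9 at -0.37, and 26 of the 36 points lie below 0.

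The size of the shift was set beside the difference between the controls. Between siL2 and siNT, 21 genes were lower in siL2 and 15 higher, with a median difference of -0.06 and a median absolute difference of 0.09 on the log2 scale, against 0.20 for all genes. Only RRP12 and NOB1 were at least 1.2-fold higher in siNT than in siL2, and only TFB2M at least 1.2-fold lower, where 20.1% and 18.9% of all genes tested were. RRP12 had the largest gap of the list, 0.40.

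In each of the 6 pairs of a USP17 siRNA library and a control, more of the 36 genes were lower than higher. The siIDT library had 26 lower against siL2 (median -0.11) and 30 against siNT (-0.18). The sino4 library had 23 (-0.10) and 26 (-0.11), and siSMPLT had 25 (-0.07) and 28 (-0.09). The smallest of these medians, siSMPLT against siL2, was about the size of the difference between the controls. These pairs share libraries and are not independent. Within the USP17 siRNA group, siIDT was the lowest library for 23 genes, siSMPLT for 10 and sino4 for 3, and medians between pairs ran from -0.06 to 0.01.

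**Figure D4:**
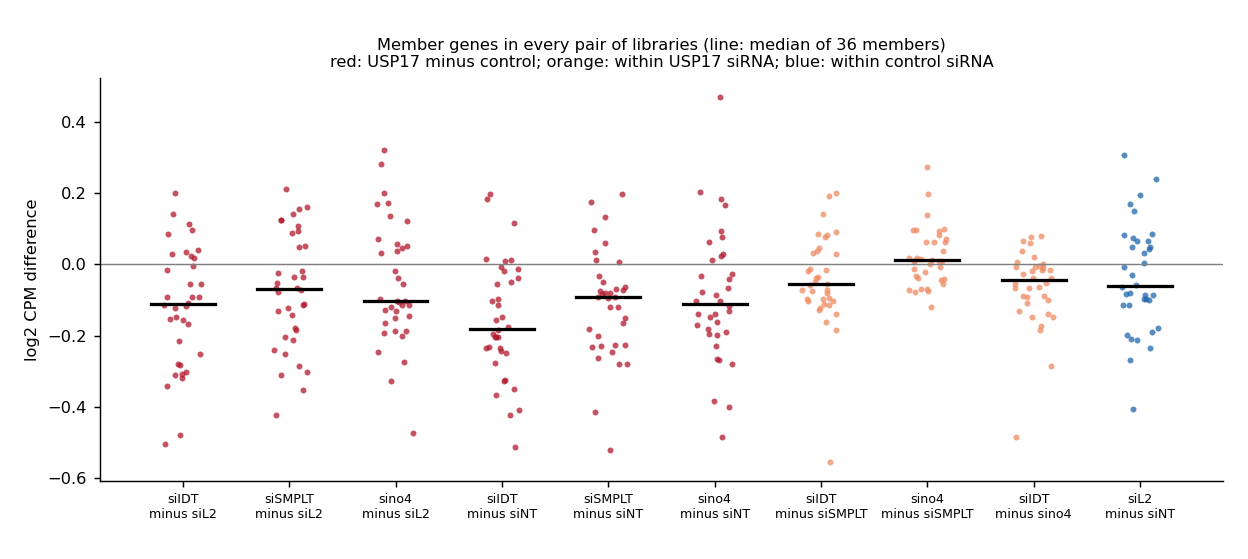
Difference in log2 CPM of each of the 36 genes for all 10 pairs of libraries, with the median as a bar; red pairs compare USP17 siRNA with control, orange pairs lie within USP17 siRNA and the blue pair is siL2 minus siNT. All 6 red medians lie below 0, from -0.18 to -0.07, and the blue median is -0.06.

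The 10 genes with the E-box shown above were set beside the 19 whose windows lacked it. Of the 10, 8 lay below both controls in every USP17 siRNA library, 1 lay above (NOP2) and 1 overlapped (UTP20), with a median log2 change of -0.18 and a range from -0.37 to 0.21. Of the 19, 7 lay below and 0 above, with a median of -0.06 and a range from -0.28 to 0.14. Over all genes tested 22.6% lay below and 23.3% above, and the difference between the 10 and the 19 was not tested. RRP9 was the 1 called gene with the motif, 5 bases before its start, and 0 of the 19 without it were called. BOP1, NOLC1, NOP58, PUS1, RRP12, RRS1 and TCOF1 had no window in the table, and their median was -0.06. Counting the noncanonical forms CACGCG and CATGTG on either strand as well, 13 of 29 windows (44.8%) held a motif, against 27.5% of all windows and 31.4% of those of genes tested. That was below the share in the other snoRNP (53.8%), small subunit (57.8%) and large subunit (60.9%) genes and in the MYC targets outside ribosome biogenesis (78.3%), differences that were not tested.

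**Figure D5:**
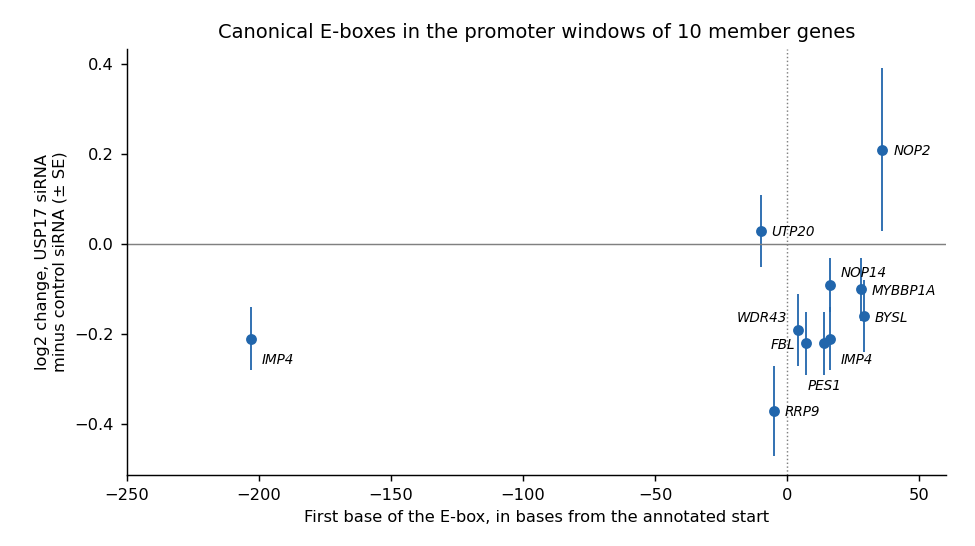
Fitted log2 change (with standard error) of the 10 genes whose promoter window holds CACGTG, by the distance of the motif's first base from the annotated start; IMP4 appears at both of its copies. One copy for each gene lies within 50 bases of the start, and UTP20 and NOP2 are the genes above 0.

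The 3' untranslated regions were searched as well. The 7-mers ATCACTC and TCACTCA were looked up because earlier work on these libraries had named them. Genes tested that hold them had medians of -0.114 and -0.079, beside 0.005 for all genes tested. Because the 7-mers came from these same libraries, the medians are a description and no separate evidence. On GENCODE 29, 3 of the 36 genes held either (8.33%), against 2081 of 12471 genes tested (16.7%). The shares were not adjusted for the length of the region, which ran from 62 bases in BOP1 to 7207 bases in POLR1A. The sites are shown for these 3, with the 7-mer in capitals, at base 3288 of the region for POLR1A, 1013 for WDR43 and 145 for NOP16. POLR1A held TCACTCA too, within the same site, where it overlaps ATCACTC and ends on the base after the capitals.
POLR1A: tattttgtttaATCACTCatctgttggtgg
WDR43: aatgataagtcTCACTCAagattttttatg
NOP16: tggttccagtcTCACTCAcagataaatgtt
NOLC1 and RRP9, the genes that fell, held neither. ATCACTC was in 1 of 36 (2.78%) against 8.06% of genes tested, and TCACTCA in 3 of 36 (8.33%) against 12.4%.

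Some of these genes also carry annotated snoRNA genes within their span, on the same strand. GNL3 holds 6, NOP56 holds 5, NOP58 holds 4, NCL and WDR43 hold 3 each, and DKC1 and PPAN hold 2 each, 25 in all. Of these 7 hosts 2 (NCL and WDR43) lay below both controls in CPM in every USP17 siRNA library, and the other 29 genes had 16 below and 1 above. Both sets had a median log2 change of -0.10. Levels of the snoRNAs were not analysed here.

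A further 151 genes chosen for a link to ribosome biogenesis, in 5 lists, had a median change of the same sign. The snoRNP list among them also held SNHG1, SNHG12 and GAS5, which are noncoding host genes of snoRNAs. In edgeR 7 fell and 1 rose, 58 (38.4%) lay below both controls in every USP17 siRNA library and 19 (12.6%) above, where 22.6% and 23.3% of all genes tested did, and the median log2 change was -0.08. Of those above, DDX47 rested on few unique counts, at 1.652, 1.549 and 1.938 CPM against 1.08 and 1.5 CPM, and RSEM gave it -0.06 ± 0.07. XRN2 had the highest change of the 151 (0.56 ± 0.26, adjusted p = 0.199 in edgeR), and its size rested on siL2. It was at 273.6, 265.2 and 257.8 CPM against 111.5 CPM in siL2 and 247.6 CPM in siNT. No difference between the 151 and the 36 genes was tested. DIMT1 and NAT10, which modify 18S rRNA, and WDR3, a small subunit scaffold, fell by 0.39, 0.55 and 0.31 on the log2 scale (adjusted p = 0.0208, 0.0305 and 0.0251). NAT10 was at 158.9, 179.9 and 219.2 CPM against 256.5 and 289.9 CPM, so its libraries differed widely but did not overlap. UTP14A, named because it was the 1 gene that rose, was at 54.21, 58.79 and 50.15 CPM against 43.69 and 37.88 CPM (0.42 ± 0.10, adjusted p = 0.0383).

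Of the large subunit list of 52, NMD3, the export adaptor, and DDX21, a nucleolar helicase, fell by 0.28 and 0.26 (adjusted p = 0.0353 and 0.0408), and RSL1D1 was at -0.22 (0.0576). RUVBL1, an ATPase of snoRNP assembly, fell by 0.31 (0.0261), with SNU13 at -0.18 (0.125) and NUFIP1 at -0.17 (0.156). EXOSC7, a subunit of the RNA exosome, fell by 0.46 (0.0173), with MPHOSPH6 at -0.28 (0.0714) and EXOSC8 at -0.16 (0.189). Of the 18 further polymerase I genes 0 were called in edgeR, with 6 at an unadjusted p under 0.05. TTF1, a termination factor, was at 0.30 (0.0519), POLR2H, a shared subunit, at -0.24 (0.0652) and RRN3, an initiation factor, at 0.24 (0.0726), and DESeq2 called these 3. Each of the genes named here as having fallen lost its call without siIDT (adjusted p from 0.071 to 0.128) and without sino4 (0.0841 to 0.177). DIMT1, WDR3, RUVBL1, NMD3 and DDX21 lost it without siSMPLT as well (0.0591 to 0.103), and NAT10 (0.0610) and DDX21 (0.0595) without siNT.

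MYC itself was at 3225 CPM in siIDT, 3242 CPM in sino4 and 3331 CPM in siSMPLT, against 3619 CPM in siL2 and 4214 CPM in siNT. It lay below both controls throughout, the controls differing more than the USP17 siRNA libraries did (3266 ± 57.1, SD, n = 3, and 3917 ± 421 CPM, SD, n = 2). The log2 change of -0.26 ± 0.07 just missed the threshold (adjusted p = 0.0519 in edgeR). MYC passed in 6 of 11 alternatives, with DESeq2's size factors, DESeq2's Wald test, limma-voom, no filter, unstranded counts and without siL2, and its adjusted p ranged from 0.00376, without siL2, to 0.188. Of the 13 genes of the MYC network 0 were called, with 3 at an unadjusted p under 0.05 and 3 called by DESeq2. MAX, the partner of MYC, was at -0.30 (adjusted p = 0.0704), and MXD3, which competes for MAX, was at 0.66 (0.0548) and passed without siNT (0.98, adjusted p = 0.00828).

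Among 30 MYC targets outside ribosome biogenesis 7 fell and 0 rose in edgeR, against 5.82% and 4.64% of all genes tested. This list, like the others, was chosen with earlier results of these data known. ODC1, the rate-limiting enzyme of polyamine synthesis, was at 427.4, 486.6 and 558.7 CPM against 1156 and 850.9 CPM, a log2 change of -1.03 ± 0.14 (adjusted p = 0.00707), larger than that of any of the 36 ribosome biogenesis genes. It passed under every alternative, between -1.24 and -0.79. PHB1, a mitochondrial chaperone, fell by 0.37 (0.0146) and HK2, a hexokinase, by 0.48 (0.0222), both missing the threshold without siIDT (0.0663 and 0.0867) and without sino4 (0.10 and 0.113). The others that fell were HSPD1, PRDX4, SHMT2 and NPM3, by 0.27 to 0.38. NPM3 is of the same family as NPM1, so this list may not lie wholly outside ribosome biogenesis. The list's median was -0.12, close to that of the 36 genes, and 14 of 30 lay below both controls and 3 above.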

How the data were processed

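RNA-seq files of 5 COLO 320DM libraries were used, 3 with USP17 siRNA and 2 with control siRNA. Per the submitters' processing notes, the authors used bcl2fastq 2.20, STAR 2.7.1a on GRCh38 and RSEM 1.3.2. The labels do not state the annotation release, read layout or strand setting. The deposited count tables hold whole reads per gene, unstranded and on each strand, and the column on the gene's strand, which exceeded the other strand 18.7 to 19.9 times, was used. Reads in no single gene (22.8% to 24.4%) were left out. From RSEM the authors deposited expected counts, with multi-mapping reads shared out, and TPM. STAR's counts leave out reads that fit several places or genes.

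Counts were fitted with edgeR 4.0.16 in R 4.3.3: filterByExpr (minimum count 10, minimum total 15), TMM scaling and a two-sided quasi-likelihood F test, adjusted by Benjamini-Hochberg over all 16341 genes tested. CPM values are TMM-scaled, and fold changes are log2 of USP17 siRNA over control. On simulated data with 100 genes changed 1.5-fold and 100 changed 2-fold among 16093, the test recovered 59% and 85%. Of its 152 calls 8 were false. The changed genes were not drawn from those with few reads. Fitted changes of the 36 genes, from -0.40 to 0.21 on the log2 scale, were smaller than these folds. Recovery at such smaller sizes was not simulated. Alternatives were DESeq2 1.42.0 (size factors and Wald test), limma 3.58.1 (voom), no filter, RSEM expected counts rounded to whole numbers, unstranded counts, an adjusted p of 0.10, and leaving out each library.

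Symbols were matched for all 36 genes and all 215 list genes. Coordinates and 3' untranslated regions came from GENCODE 29, and promoter windows from RefSeq (GRCh38.p14). One further gene list is not reported here. The genes and lists were chosen with earlier results of these data known. Values are given for called genes, the smallest p in each role, the 2 highest and 2 lowest levels, the 3 smallest p in each other list, and MYC. Values are also given for all further members.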

Additional observations from a re-analysis of the deposited data

How the results depend on the processing

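With 3 libraries against 2, the number of calls moved with the method and the libraries. Of the 36 genes DESeq2's Wald test called 5, the test without a filter 1 and an adjusted p of 0.10 gave 7, where all genes had 2342, 1479 and 3074 calls against 1710 in the main comparison; the count was 2 with DESeq2's size factors, limma-voom, RSEM expected counts or unstranded counts. Leaving out 1 library gave 0 to 5 calls (0 when siIDT or sino4 was dropped, 1 for siSMPLT, 2 for siNT and 5 for siL2), while calls over all genes went to 349, 130, 1041, 2633 and 2430 for siIDT, sino4, siSMPLT, siNT and siL2 in turn; with 1 control left, that library is assumed to vary like the others. Genes whose groups did not overlap numbered 19, and 20 to 29 with 1 library left out, where fewer libraries overlap more rarely. The median log2 change was -0.098, and -0.134 to -0.093 with 1 library left out. Calls among the 151 other ribosome biogenesis factors numbered 8, then 16 with the Wald test, 20 at 0.10 and 0 to 19 with 1 library left out. For the MYC network, with 0 calls, DESeq2's size factors, limma-voom, no filter and unstranded counts each gave 1, the Wald test and 0.10 each gave 3, and leaving out 1 library gave 0 to 3. For the other MYC targets the 7 calls became 1 to 10 with 1 library left out.

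Changes of sign concerned genes near 0 and not the called ones: EMG1 (-0.028) and GNL3 (-0.004) with unstranded counts, and PUS1 with DESeq2's size factors or Wald test (-0.002) and unstranded counts (-0.012). With 1 library left out the sign also turned for POLR1A (-0.13 to 0.054), POLR1B (-0.076 to 0.12), UTP20 (-0.083 to 0.16), EMG1 (-0.022 to 0.032), RRP12 (-0.25 to 0.15), RRS1 (-0.14 to 0.038), PPAN (-0.20 to 0.058), GNL3 (-0.004 to 0.024), CAD (-0.064 to 0.15), PUS1 (-0.11 to 0.12) and TFB2M (-0.17 to 0.14). No paired analysis was possible because the labels carry no replicate numbers and each duplex had 1 library.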
